A study of Danio rerio with 6 samples.

Results

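Heat shock proteins and co-chaperones were described here by the 99 genes whose symbol begins with hsp, dnaj, bag, cct or hsf (for the last 3, followed by a digit) and that had at least 60 reads summed over the 6 libraries. They were taken from 110 matching symbols among 32520 genes. The 99 genes comprised 4 of the hsp90 family, 16 of the hsp70 family (with *hsph1*, an hsp110 gene, included), 9 small heat shock protein genes, the 2 mitochondrial chaperonin genes *hspd1* and *hspe1*, 48 dnaj genes, 8 cct genes, 7 bag genes, 2 hsf genes and 3 others that the name pattern caught. Another 11 matching genes stayed below the minimum, with at most 34 reads, and 4 of these had 0 reads, *hsf4* and *hsf5* among them. The lowest of the 99 genes had 86 reads.

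The study compared heart ventricles of wild type zebrafish bred from the AB and TU strains. The old group held 3 libraries from fish of 4 years (replicates 1, 3 and 5) and the young group 3 libraries from fish of 7 months (replicates 1, 2 and 5). No treatment or injury is given for these ventricles. The submitters speak of individual fish, but whether 1 library is 1 ventricle or a pool, and the sex of the fish, are not given, so the p-values measure only the spread between these libraries.

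Chaperones bind unfolded or partly folded proteins and keep them from aggregating. Hsp70 proteins work in cycles that J-domain proteins (the dnaj genes) start and that nucleotide exchange factors, such as bag and hsp110 proteins, turn over. Hsp90 acts later on selected clients together with co-chaperones, the ring-shaped CCT complex folds actin and tubulin, and small heat shock proteins hold unfolded proteins without using ATP. Heat shock factors switch on a subset of these genes when unfolded protein accumulates, while other family members are made at all times. In heart muscle the small heat shock proteins and Bag3 are known for maintaining the sarcomere.

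Each library held between 17742389 and 22547518 counted reads. Values are given as CPM, counts scaled to a common library size with TMM factors (edgeR), and 3 counts corresponded to 0.124 to 0.161 CPM. CPM does not correct for transcript length, so levels are compared between libraries for 1 gene and not between genes. Leukocyte markers, chosen as a list of 16 genes, summed to 765, 217 and 554 CPM in old replicates 1, 3 and 5 and to 215, 154 and 116 CPM in young replicates 1, 2 and 5. Of these 16 genes, 11 had an unadjusted p under 0.05 in edgeR, all higher in old, and *lcp1* passed the adjusted test. Of all tested genes, 8.64% were higher and 6.5% lower at the unadjusted threshold, and 0.519% passed the adjusted test as higher in old. The 5 erythrocyte markers summed to 391 to 413 CPM in old and to 766 to 2213 CPM in young ventricles. Cardiomyocyte markers, which define the labelled tissue, were abundant in every library, with sums between 55390 and 74380 CPM. In such bulk samples, fewer cells of a type and less RNA per cell cannot be told apart.

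With all 6 libraries, no heat shock or co-chaperone gene was called different between old and young ventricles by an adjusted p in edgeR. In its quasi-likelihood test, 0 of the 99 genes passed the adjusted threshold of 0.05 in either direction, where 0.519% of all tested genes passed as higher and 0.338% as lower in old. At an unadjusted p under 0.05, 7 genes were higher and 3 lower, against 8.64% and 6.5% of all genes and 10.7% and 9.5% of genes with at least 60 reads, so the members' shares lay below the background. Scaling by library size alone moved the median log2 fold change of all genes with at least 60 reads from -0.03 to 0.15, and the split was then 12 higher and 1 lower. The share of all genes at that threshold was not taken with this scaling. With DESeq2, 1 gene passed the adjusted threshold, *bag5*, lower in old (adjusted p = 0.0337), where 4.24% of the genes with an adjusted p passed as higher and 2.77% as lower. At an unadjusted p under 0.05 DESeq2 gave 3 higher and 5 lower, against 7.7% and 6.01% of all genes. DESeq2 gave no p for 8 members (*hsp70.1*, *hsp70.3*, *hsp70l*, *hspa2*, *hspa8* under ENSDARG00000037403, *hsph1*, *dnaja* and *dnajb1b*), so its counts with all libraries leave these genes out.

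Old and young libraries did not overlap for 5 members that were higher in old and for 11 that were lower, where 10.4% and 9.66% of all tested genes separated in these directions. Among genes with at least 60 reads, as the members have, the shares were 11.8% and 13.6%, against 5.05% and 11.1% of the members. The higher 5 were both *cct2* copies, *dnajc5* (ENSDARG00000004836), *dnajc5gb* and *hspa8* (ENSDARG00000037403). The lower 11 were *bag5*, *bag6* (ENSDARG00000075892), *dnaja2* (ENSDARG00000104066), *dnajb6a*, *dnajb9* (ENSDARG00000052072), *dnajc15*, *dnajc18*, *hsf1*, *hspb9*, *hspb9l* and *hspg2*.

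The libraries of the old group were not alike in these genes, and this sets most of what follows. Old replicate 1 had the highest CPM of the 6 libraries for 39 of the 99 members (39.4%), which was the case for 17.3% of the 15037 genes with at least 60 reads. For 26 members (26.3%) old replicate 1 was highest and young replicate 2 second, against 4.8% of those genes. The other old libraries, replicates 3 and 5, were the lowest pair for 37 members (37.4% against 12.4%). For 17 members (17.2% against 2.09%) both held at once, so that 1 old library lay above every young library and the other 2 below. These orders of libraries were not fixed beforehand but were chosen after the values of these members had been seen. An excess over the other genes is therefore no test of the pattern, here or where the order is named below. These shares are descriptions of 6 libraries, and genes are not independent replicates.

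**Figure D1:**
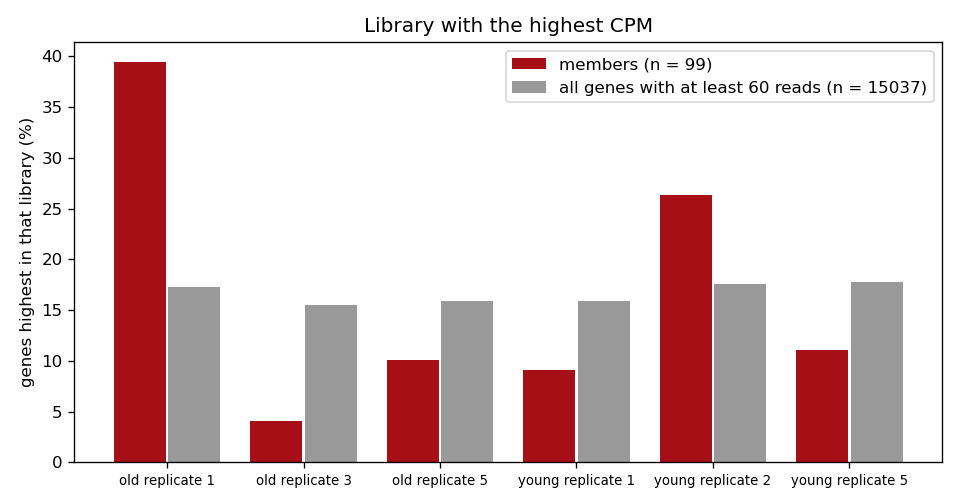
Share of genes whose highest CPM lay in each library, as percentages of the 99 members (red) and of the 15037 genes with at least 60 reads (grey). Old replicate 1 is highest for 39.4% of the members and for 17.3% of all genes, and young replicate 2 for 26.3% against 17.6%.

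The excess in old replicate 1 was large in the heat-inducible cytosolic hsp70 genes. For *hsp70l*, the classical heat-inducible hsp70 gene of zebrafish, old replicates 1, 3 and 5 had 152, 2.68 and 0.74 CPM, and young replicates 1, 2 and 5 had 1.1, 6.52 and 4.65 CPM. The inducible *hsp70.3* measured 122, 0.70 and 0.33 CPM in the old libraries and 0.35, 3.58 and 1.89 CPM in the young ones. Its chromosomal neighbour *hsp70.1* measured 104, 0.91 and 0.79 CPM in old and 0.95, 2.95 and 4.34 CPM in young. In all 3 genes a single old library was far above the rest, and the other 2 old libraries lay among or below the young ones. In the RefSeq annotation of the assembly GRCz12tu, *hsp70.1* and *hsp70.3* are separated only by *hsp70.2*, a symbol that matched no gene here. Whether that gene was counted under another name was not checked.

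The gene named *hspa8* under ENSDARG00000037403 after the constitutive cytosolic hsp70 gene had 642 CPM in old replicate 1 and 1.87 and 2.27 CPM in old replicates 3 and 5. In young replicates 1, 2 and 5 it had 0.55, 0.87 and 1.38 CPM. Old replicate 1 exceeded the highest of the other libraries 282-fold for this gene, 34.1-fold for *hsp70.3*, 24.0-fold for *hsp70.1* and 23.3-fold for *hsp70l*. The gene named *hspa2* measured 148, 1.66 and 1.2 CPM in old and 1.1, 7.59 and 6.13 CPM in young. For *hsph1*, an hsp110-type exchange factor of hsp70, the old libraries had 231, 18.8 and 9.71 CPM and the young libraries 22.1, 29.4 and 13 CPM. These 6 genes were the members above 5 times every other library in old replicate 1, which held for 29 of the 15037 genes (0.193%).

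The spread within the old group was thus larger than the difference between the groups. The log2 fold change of old against young was 7.84 (SE 2.16) for *hspa8* (ENSDARG00000037403), 4.39 (SE 1.80) for *hsp70.3*, 3.68 (SE 1.57) for *hsp70.1*, 3.66 (SE 1.56) for *hsp70l*, 3.35 (SE 1.55) for *hspa2* and 2.01 (SE 0.97) for *hsph1*. Their adjusted p-values in edgeR lay between 0.131 and 0.373. Without old replicate 1, the log2 fold changes became 1.15, -1.93, -1.69, -1.27, -1.79 and -0.60 in the same order, with adjusted p-values from 0.209 to 0.498. For 5 of these 6 genes the direction therefore rested on 1 library. The exception was *hspa8* (ENSDARG00000037403), whose old libraries were above all young libraries at levels of 1.87 and 2.27 CPM. Without old replicate 5 this gene had a log2 fold change of 8.42 (edgeR, adjusted p = 0.0489). That value rests on old replicate 1, and without old replicate 1 the adjusted p was 0.291 in edgeR. Of 16 other settings tried, 1 gave this gene an adjusted p under 0.05. The share of all genes passing without old replicate 5 was not taken.

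**Figure D2:**
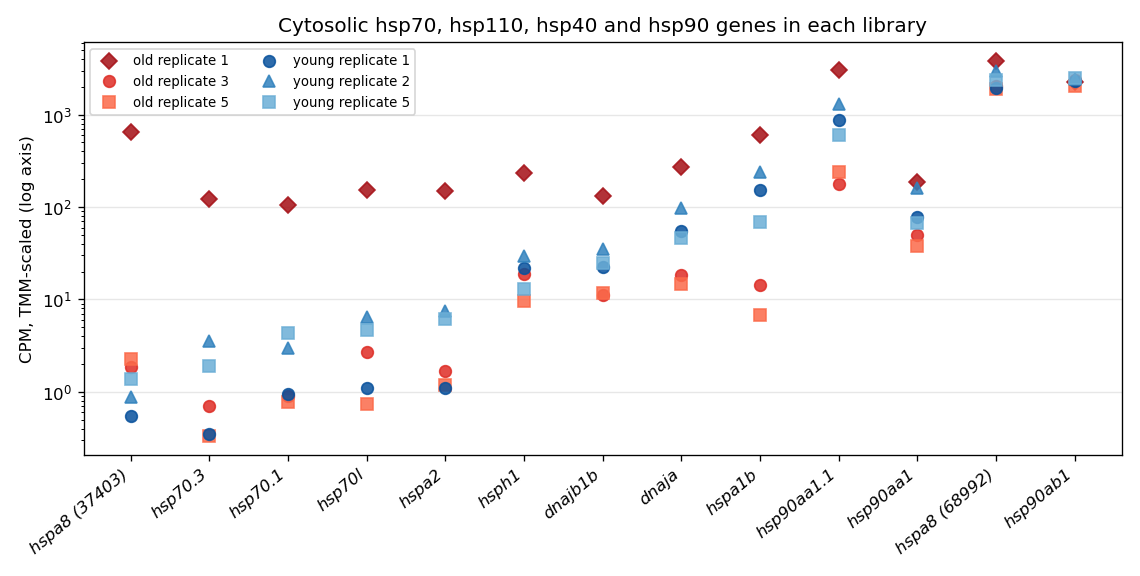
CPM (log axis) of cytosolic hsp70, hsp110, hsp40 and hsp90 genes in the 3 old (red) and 3 young (blue) libraries, 1 point per library, with the last 5 digits of the gene ID where a symbol is shared. Old replicate 1 (diamonds) lies apart for the genes on the left, while *hsp90ab1* on the right has 2022 to 2525 CPM in all libraries.

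The constitutive counterparts varied less. The other *hspa8* gene (ENSDARG00000068992) had 3798, 2022 and 1898 CPM in old replicates 1, 3 and 5 and 1968, 2984 and 2395 CPM in young replicates 1, 2 and 5. This gene too was highest in old replicate 1 and second in young replicate 2. Its log2 fold change was 0.07 (SE 0.27, edgeR adjusted p = 0.917), and -0.32 (SE 0.19, adjusted p = 0.463) without old replicate 1. The constitutive cytosolic hsp90 gene *hsp90ab1* had 2260, 2402 and 2022 CPM in old and 2303, 2456 and 2525 CPM in young. Its log2 fold change was -0.12 (SE 0.12, edgeR adjusted p = 0.618) and -0.13 (SE 0.15) without old replicate 1, so that neither fit separated it from no change. The groups overlapped for both genes.

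A second set of genes differed between the young libraries and old replicates 3 and 5, with old replicate 1 above all of them. The gene named *hspa1b*, after an inducible human hsp70 gene, measured 605 CPM in old replicate 1 but 14.2 and 6.78 CPM in old replicates 3 and 5, against 153, 238 and 68.4 CPM in young replicates 1, 2 and 5. For *hsp90aa1.1*, the hsp90 gene of striated muscle that is required for myosin folding in zebrafish, old libraries had 3073, 177 and 242 CPM and young libraries 874, 1318 and 598 CPM. The mean of the young libraries was 14.6 times the mean of old replicates 3 and 5 for *hspa1b* and 4.44 times for *hsp90aa1.1*. In RefSeq (GRCz12tu) *hsp90aa1.1* lies next to *hsp90aa1.2*, a symbol that matched no gene here. Many members carry human-style names, so the neighbour may have been counted under another name, which was not checked. Reads mapping to more than 1 place had been discarded. The member with the human-style name *hsp90aa1* (ENSDARG00000024746) had 186, 50 and 38 CPM in old and 77, 163 and 68 CPM in young. Its log2 fold change was -0.17 (SE 0.56), and -1.22 (SE 0.36, edgeR adjusted p = 0.129) without old replicate 1.

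Some J-domain genes had the same order of libraries, 7 of the 48, and 3 of these are given here. The gene listed as *dnaja* had 271, 18.6 and 14.6 CPM in old and 54.8, 98.5 and 46.6 CPM in young ventricles. For *dnajb1b*, one of the zebrafish genes for the J-domain partner of inducible hsp70, the values were 130, 11.2 and 11.9 CPM in old and 22.6, 35.5 and 24.9 CPM in young. Its paralog *dnajb1a* measured 14.9, 5.41 and 5.62 CPM in old and 13.5, 13.7 and 12.5 CPM in young. All 3 genes were lowest in old replicates 3 and 5 and highest in old replicate 1, though *dnajb1a* exceeded the young libraries only slightly there.

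Leaving out old replicate 1 was a step singled out after the values had been seen. Without that library, 5 members passed the adjusted threshold in edgeR, all lower in old and all among the genes just given. The log2 fold changes were -3.87 for *hspa1b* (SE 0.54, adjusted p = 0.00793) and -2.15 for *hsp90aa1.1* (SE 0.32, adjusted p = 0.0108). They were -2.01 for *dnaja* (SE 0.33, adjusted p = 0.0190), -1.26 for *dnajb1a* (SE 0.24, adjusted p = 0.0310) and -1.26 for *dnajb1b* (SE 0.25, adjusted p = 0.0390). Of all genes tested in that fit, 1.03% passed as higher and 0.654% as lower. At an unadjusted p under 0.05, 3 members were higher and 25 lower, against 8.56% and 6.99% of all genes and 10.9% and 10.3% of genes with at least 60 reads. Old replicate 1 was singled out for its high values in many members, so the excess of lower members follows in part from that choice.

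These calls depended on the fit. With edgeR's bias-adjusted deviances and old replicate 1 left out, 0 members passed, with 4 higher and 24 lower at an unadjusted p under 0.05 (9.31% and 7.08% of all genes), and the adjusted p-values of the 5 genes lay between 0.0648 and 0.101 (0.299% of all genes passed as higher and 0.127% as lower). With DESeq2 on the same 5 libraries 9 members passed as lower, the 5 above with *dnaja1*, *hspa4* (ENSDARG00000004754), *bag5* and *bag3*, where 3.39% of genes with an adjusted p passed as higher and 2.88% as lower. At an unadjusted p under 0.05 that fit gave 1 higher and 25 lower (6.85% and 6.28% of all genes). With all 6 libraries the log2 fold changes of the 5 genes were 0.45 for *hspa1b*, 0.32 for *hsp90aa1.1*, 0.61 for *dnaja*, -0.61 for *dnajb1a* and 0.89 for *dnajb1b*, with adjusted p-values in edgeR from 0.495 to 0.885.

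Across the members, 17 log2 fold changes turned from positive to negative without old replicate 1, and 4 turned the other way. The median over the 99 members went from -0.06 to -0.25 on the log2 scale, while that of all genes with at least 60 reads stayed at -0.03. The family medians went from -0.14 to -0.84 for hsp90, from 0.16 to -0.48 for hsp70, from -0.07 to -0.68 for the mitochondrial chaperonin, from -0.28 to -0.51 for the small heat shock proteins and from -0.14 to -0.43 for bag. For dnaj the median went from -0.07 to -0.23 and for cct from -0.01 to -0.14, while that of the 2 hsf genes went up from -0.28 to -0.17. Scaled by library size alone, with all 6 libraries, the dnaj median was 0.11. Old replicate 1 had the highest CPM for 39.4% of the members and for 17.3% of genes with at least 60 reads. Leaving it out therefore lowers the members more than the background, and these shifts are no separate result. No test was made of a median.

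**Figure D3:**
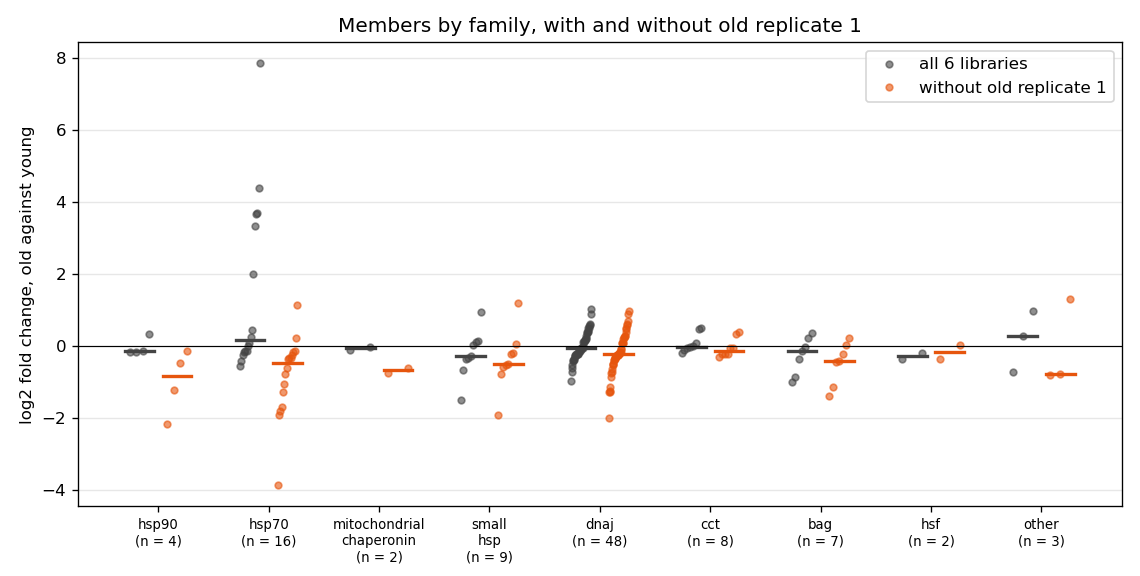
Log2 fold changes of old against young from edgeR for each member, by family, with all 6 libraries (dark) and without old replicate 1 (orange). Each dot is a gene and each bar the family median, and the hsp70 median goes from 0.16 to -0.48 and the hsp90 median from -0.14 to -0.84.

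The summed CPM of the hsp70, hsp90, dnaj and mitochondrial chaperonin genes had the same order of libraries. So did that of the 3 others that the name pattern caught. The sums of the small heat shock protein, cct, bag and hsf genes did not. Gene by gene, the order held for 3 of the 16 hsp70, 3 of the 4 hsp90, 7 of the 48 dnaj and both mitochondrial chaperonin genes. A sum can follow few genes. In old replicates 1, 3 and 5, *hsp90aa1.1* alone had 3073, 177 and 242 CPM, and *dnaja* had 271, 18.6 and 14.6 CPM. The 16 hsp70 genes summed to 7215, 2859 and 2666 CPM in old replicates 1, 3 and 5 and to 3115, 4694 and 3547 CPM in young replicates 1, 2 and 5. The 4 hsp90 genes summed to 5676, 2724 and 2393 CPM in old and to 3356, 4078 and 3332 CPM in young. In both families the young libraries lay between old replicate 1 and the other old libraries. The 48 dnaj genes summed to 2202, 1502 and 1506 CPM in old and to 1665, 2038 and 1802 CPM in young, and the 8 cct genes ranged from 1653 to 2183 CPM over all libraries. The small heat shock protein genes summed to 6407, 5787 and 4706 CPM in old and to 5913, 8436 and 6413 CPM in young, and the bag genes to 492, 274 and 210 CPM in old and to 280.0, 541 and 580 CPM in young. Both sums were highest in a young library, and the hsf sum was lower in every old library (33.0 to 40.6 CPM) than in every young one (41.2 to 50.9 CPM).

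Other measured features of the libraries are given beside this pattern. Genes of the immediate early response, which can be induced by handling of tissue, summed to 1158, 851 and 255 CPM in old replicates 1, 3 and 5 and to 293, 627 and 912 CPM in young replicates 1, 2 and 5. Mitochondrial genes took 11.3, 13.9 and 13.5% of the counts in old and 16.1, 14.9 and 17.9% in young. The leukocyte sum was also highest in old replicate 1. The part of handling, RNA composition or leukocytes in the chaperone values was not tested.

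The endoplasmic reticulum genes *hspa5* and *hsp90b1* had the same order of libraries at smaller size. The hsp70 of this compartment, *hspa5*, measured 243, 101 and 78.3 CPM in old and 103, 193 and 168 CPM in young, a log2 fold change of -0.14 (SE 0.40). Its hsp90 counterpart *hsp90b1* measured 158, 95 and 90.4 CPM in old and 101, 141 and 141 CPM in young (-0.16, SE 0.24). Without old replicate 1 the values were -0.79 (SE 0.27, edgeR adjusted p = 0.193) and -0.46 (SE 0.21, adjusted p = 0.325), so neither passed. The order was not general in this compartment. Of 13 other genes for folding there, 0 had old replicate 1 highest with old replicates 3 and 5 the lowest pair, and their sums were 848, 741 and 664 CPM in old and 634, 746 and 819 CPM in young. Only some J-domain co-chaperones of this compartment were listed by role, *dnajb11*, *dnajc3a* and both *dnajb9* copies. These overlapped between the groups except for the *dnajb9* copy ENSDARG00000052072. That copy had 0.16 to 0.79 CPM in old and 0.95 to 1.23 CPM in young (log2 fold change -0.97, SE 0.58, adjusted p = 0.488).

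The mitochondrial chaperonin genes had the same order of libraries. Its top, old replicate 1 before young replicate 2, was shared by 26 of the 99 members, these genes included, and by 4.8% of genes with at least 60 reads. For *hspd1*, which encodes the hsp60 ring, old libraries had 421, 138 and 172 CPM and young libraries 199.9, 365 and 216 CPM. For *hspe1*, which encodes its hsp10 lid and is the direct neighbour of *hspd1* in RefSeq (GRCz12tu), old libraries had 270, 97.9 and 124 CPM and young libraries 138, 206 and 161 CPM. Both were highest in old replicate 1, second in young replicate 2 and lowest in old replicate 3. Their log2 fold changes were -0.10 (SE 0.40) and -0.04 (SE 0.34), and -0.75 (SE 0.27, edgeR adjusted p = 0.208) and -0.60 (SE 0.22, adjusted p = 0.224) without old replicate 1. The mitochondrial hsp70 gene *hspa9* ranged from 344 to 507 CPM in old and from 378 to 536 CPM in young.

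The CCT subunit genes varied little between libraries. Of the 8 genes, 6 overlapped between the groups, with log2 fold changes from -0.20 for *cct6b* to 0.07 for *cct7*. The exceptions were the 2 genes named *cct2*. The copy ENSDARG00000104674 had 200, 169 and 150 CPM in old and 100, 134 and 135 CPM in young, and the copy ENSDARG00000087206 had 29.4, 23.4 and 23.4 CPM in old and 16.2, 18.0 and 21.2 CPM in young. All old libraries were above all young libraries for both, as they were for 11.8% of genes with at least 60 reads. The log2 fold changes of the 2 copies were 0.49 (SE 0.18, edgeR adjusted p = 0.243) and 0.46 (SE 0.19, adjusted p = 0.301). Neither passed the test over all genes, and without old replicate 1 the values were 0.38 and 0.34. Reads that map to both copies had been discarded, so the counts of genes with the same name are uncertain where their sequences are alike.

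**Figure D4:**
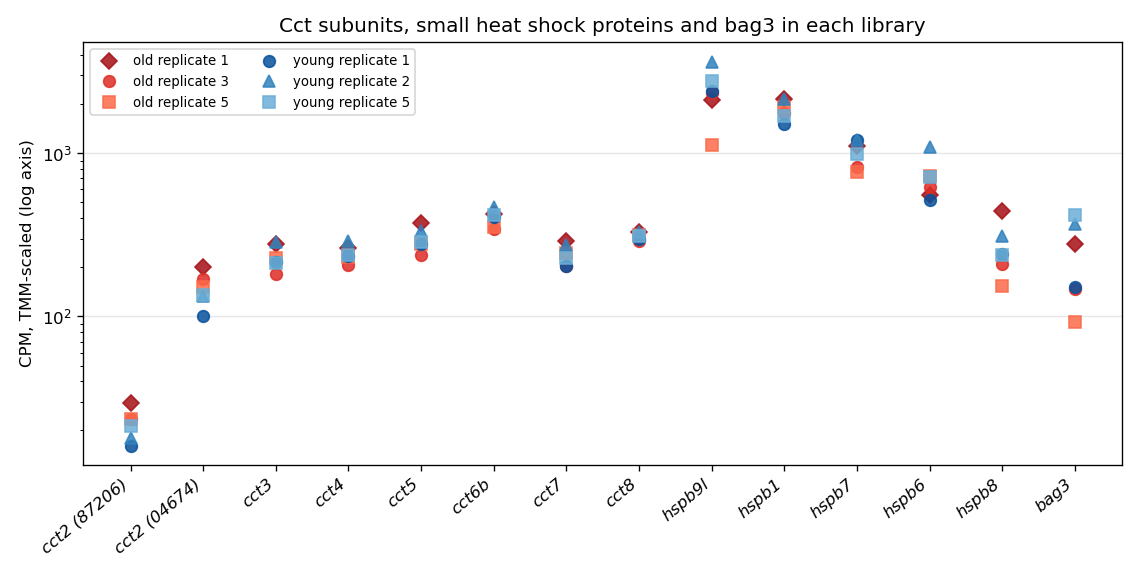
CPM (log axis) of the 8 cct genes, the small heat shock protein genes *hspb9l*, *hspb1*, *hspb7*, *hspb6* and *hspb8*, and *bag3* in the 3 old (red) and 3 young (blue) libraries, 1 point per library, with the last 5 digits of the gene ID where a symbol is shared. The cct points lie close together, and *hspb9l* and *bag3* spread most, *hspb9l* from 1125 to 3642 CPM.

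Of the 9 small heat shock protein genes, 4 had a log2 fold change above 0 and 5 below, and the old and young libraries separated for *hspb9l* and *hspb9*, both lower in old. Among genes with at least 60 reads, 13.6% separated as lower and 11.8% as higher in old. *hspb9l* had 2113, 2342 and 1125 CPM in old replicates 1, 3 and 5 and 2413, 3642 and 2764 CPM in young replicates 1, 2 and 5. Its log2 fold change was -0.66 (SE 0.26, edgeR adjusted p = 0.271), and it stayed between -0.86 and -0.40 in all other settings tried. *hspb9*, which has few reads, had 2.77, 2.62 and 0.25 CPM in old and 6.41, 6.19 and 3.27 CPM in young (log2 fold change -1.50, SE 0.67, adjusted p = 0.334). Old replicate 1 was not the highest library for either gene.

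The muscle genes of this family differed among themselves. The gene *hspb7*, expressed mainly in heart and muscle, had 1106, 825 and 763 CPM in old and 1206, 1204 and 983 CPM in young. For *hspb8*, the partner of Bag3 in removing damaged muscle proteins, old libraries had 440, 208 and 154 CPM and young libraries 241, 310 and 236 CPM. The hsp27 gene *hspb1* had 2151, 1766 and 1918 CPM in old and 1507, 2160 and 1682 CPM in young, and *hspb6* had 558, 625 and 722 CPM in old and 515, 1090 and 712 CPM in young. The groups overlapped for all 4 genes. With *hspb7* at -0.33 (SE 0.17, edgeR adjusted p = 0.410) and *hspb8* at 0.03 (SE 0.34), *hspb1* at 0.13 (SE 0.16) and *hspb6* at -0.28 (SE 0.25), none passed the test over all genes. *hspb11* was at the edge of detection, with 0.54 to 1.07 CPM in old and 0.00 to 0.70 CPM in young.

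Among the bag genes, *bag5* had the clearest separation of the groups. This exchange factor of hsp70 had 3.85, 3.37 and 2.48 CPM in old and 7.91, 5.65 and 5.87 CPM in young, so that every old library was below every young one. Its log2 fold change was -1.0 (SE 0.29, edgeR adjusted p = 0.141) and -1.15 (SE 0.33, adjusted p = 0.117) without old replicate 1, and it was the single member that DESeq2 called with all libraries. The muscle gene *bag3*, which directs damaged filament proteins to degradation, had 279, 147 and 92.1 CPM in old and 151, 367 and 415 CPM in young. Its groups overlapped, with a log2 fold change of -0.85 (SE 0.44, adjusted p = 0.407), which became -1.38 (SE 0.39, adjusted p = 0.116) without old replicate 1. *bag6* (ENSDARG00000075892) was lower in all old libraries by a small margin, with 49.3 to 62.2 CPM against 68.8 to 70.9 CPM.

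The factors themselves were not higher in the old ventricles. *hsf1*, the main activator of the heat shock response, had 31.4, 27.0 and 34.1 CPM in old replicates 1, 3 and 5 and 45.0, 36.5 and 37.2 CPM in young replicates 1, 2 and 5. The groups did not overlap, but the log2 fold change of -0.36 (SE 0.18) had an adjusted p of 0.395 in edgeR. Old replicate 1, in which the inducible hsp70 genes were highest, held the middle of the old *hsf1* values. *hsf2* had 3.67 to 6.57 CPM in old and 4.69 to 7.92 CPM in young. These are RNA levels, and heat shock factors are activated as proteins.

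Most dnaj genes had small differences between the groups. Of the 48, 19 had a log2 fold change above 0 and 29 below, with a range from -0.97 to 1.02. Of genes with at least 60 reads, 10.7% were higher and 9.5% lower in old at an unadjusted p under 0.05 in edgeR. Among the dnaj genes 1 reached that threshold. This was *dnajc5gb*, a gene of the cysteine string protein type, with 18.1, 20.3 and 16.8 CPM in old and 10.5, 14.0 and 12.3 CPM in young (log2 fold change 0.59, SE 0.20, edgeR adjusted p = 0.196). Its value hardly moved without old replicate 1 (0.60, SE 0.22). The dnaj gene with the most reads was *dnajb6b*, whose mammalian counterpart suppresses protein aggregation in muscle. It had 413, 339 and 373 CPM in old and 399, 493 and 421 CPM in young, a log2 fold change of -0.22 (SE 0.15), with overlapping groups. *dnaja2* (ENSDARG00000104066), a cytosolic co-chaperone of hsp70, was lower in all old libraries, with 228 to 255 CPM against 269 to 299 CPM (-0.24, SE 0.14, adjusted p = 0.476).

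The name pattern also caught *hspg2*, which encodes the basement membrane proteoglycan perlecan and is no chaperone gene. It had 15, 17 and 9.42 CPM in old and 25.5, 18.8 and 23.9 CPM in young, a log2 fold change of -0.72 (SE 0.25, edgeR adjusted p = 0.211). Leaving it out changed no count of adjusted calls, but it was among the members counted as lower in old. Without it, 2 members in place of 3 were lower at an unadjusted p under 0.05 in edgeR with all libraries. Those lower without overlap were 10 in place of 11. With old replicate 1 left out, 24 in place of 25 were lower at that threshold.

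Other genes of the chaperone network were read from a list of partners outside the name pattern, of which 63 genes were tested. None passed with all 6 libraries in edgeR, and at an unadjusted p under 0.05 there were 0 higher and 3 lower, beside the shares of all genes given above (8.64% and 6.5%). DESeq2 called 0 higher and 2 lower, *ptges3* (ENSDARG00000037284, adjusted p = 0.0139) and *clpx* (ENSDARG00000067796, adjusted p = 0.00491), and gave no p for 2 genes. Of all genes with an adjusted p in DESeq2, 4.24% passed as higher and 2.77% as lower. Of the 21 hsp90 co-chaperones, 6 had old replicate 1 highest with old replicates 3 and 5 the lowest pair, and of the 42 other partners 1 had this order, *cryab*. Among genes with at least 60 reads the share with this order was 2.09%. The myosin chaperone gene *unc45b*, which acts with Hsp90 in muscle, had 836, 125 and 125 CPM in old and 388, 549 and 254 CPM in young. *stip1*, whose protein (Hop) links Hsp70 to Hsp90, had 275, 64.8 and 75.4 CPM in old and 135, 193 and 120 CPM in young. In both genes the young libraries lay between old replicate 1 and the other old libraries.

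**Figure D5:**
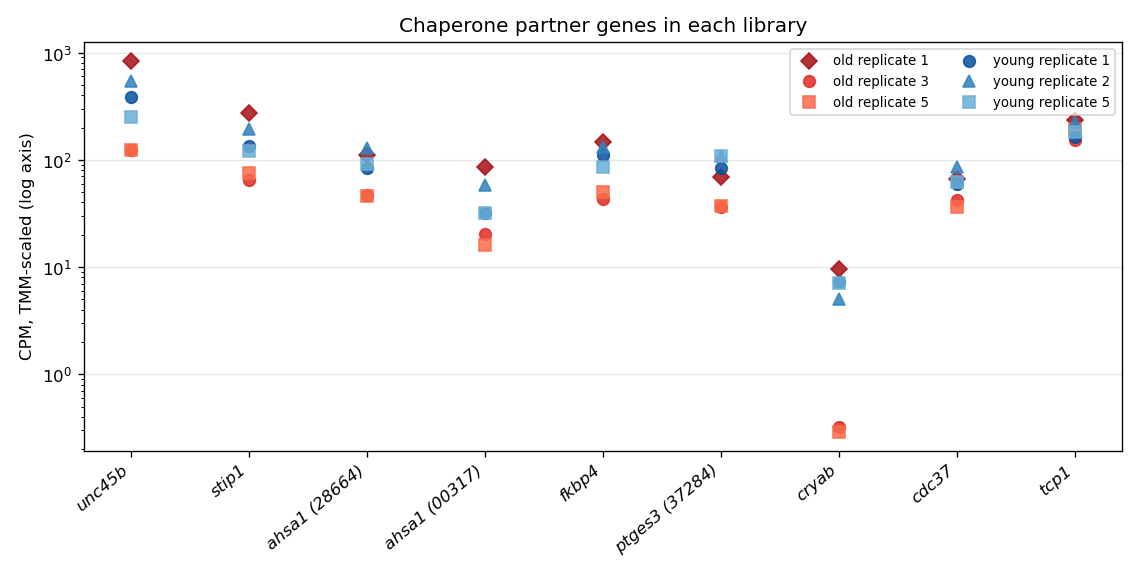
CPM (log axis) of 9 chaperone partner genes in the 3 old (red) and 3 young (blue) libraries, 1 point per library, with the last 5 digits of the gene ID where a symbol is shared. Old replicates 3 and 5 are the lowest pair for all of them but *tcp1*, and *cryab* is at 0.32 and 0.29 CPM there. The plotted genes are a selection. Of all 63 partner genes, 19 had this lowest pair, against 12.4% of genes with at least 60 reads.

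Old replicate 1 was left out after the values had been seen. In that edgeR fit, 1.03% of all genes passed the adjusted threshold as higher and 0.654% as lower in old. Without old replicate 1, 5 partner genes passed, all lower in old, and 4 of them were among the 21 hsp90 co-chaperones. The log2 fold changes were -1.67 for *unc45b* (SE 0.29, adjusted p = 0.0247), -1.22 for *fkbp4* (SE 0.23, adjusted p = 0.0331), -1.13 for *ahsa1* (ENSDARG00000028664, SE 0.23, adjusted p = 0.0454) and -1.47 for *ptges3* (ENSDARG00000037284, SE 0.21, adjusted p = 0.00937). These genes encode an immunophilin (*fkbp4*), an activator of the Hsp90 ATPase (*ahsa1*) and the co-chaperone p23 (*ptges3*). The fifth was *cryab*, a small heat shock protein gene known as alpha-B-crystallin, with -4.39 (SE 0.43, adjusted p = 0.00141). It had 9.65, 0.32 and 0.29 CPM in old and 7.26, 5.03 and 7.15 CPM in young. With bias-adjusted deviances in edgeR and old replicate 1 left out, *cryab* passed (adjusted p = 0.0147). In that fit *unc45b* (adjusted p = 0.0926) and *ahsa1* (ENSDARG00000028664, adjusted p = 0.102) did not pass, and *fkbp4* and *ptges3* are not given. Of the 5 genes, only *ptges3* (ENSDARG00000037284) had all old libraries below all young ones, with 68.5, 36.3 and 36.8 CPM against 84.4, 109 and 109 CPM. The other *ptges3* copy (ENSDARG00000089626) overlapped between the groups, with a log2 fold change of 0.02 (SE 0.44) with all libraries. Without old replicate 1 the value of that copy was -0.72 (SE 0.29, edgeR adjusted p = 0.257).

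Other partner genes listed by role had other orders of libraries. The chaperonin subunit gene *tcp1* had 234, 154 and 193 CPM in old and 162, 225 and 180.4 CPM in young (log2 fold change 0.04, SE 0.20). The mitochondrial hsp90 gene *trap1* had 50.7, 46.0 and 59.5 CPM in old and 45.9, 94.3 and 73.3 CPM in young (-0.45, SE 0.26, edgeR adjusted p = 0.459). Neither gene showed the order of libraries seen for *unc45b* and *stip1*. Of the 2 copies of *smyd1*, a muscle methyltransferase that acts with Unc45b on myosin, the one with more reads (ENSDARG00000091253) had 17.9, 107 and 107 CPM in old and 164, 185 and 58 CPM in young (-0.82, SE 0.60, adjusted p = 0.579). In contrast to the inducible chaperone genes, its lowest value was that of old replicate 1.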

How the data were processed

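RNA was extracted from ventricles with trizol, and per the paper's methods 3 samples per age group were chosen by RNA integrity. Libraries were made with a directional kit after poly(A) enrichment and read from a single end. The authors demultiplexed the reads with bcl2fastq 2.20.0.422, aligned them to GRCz11 with STAR 2.5.4b and counted reads with featureCounts 1.6.3 in stranded mode. They deposited raw counts per Ensembl gene after dropping reads with more than 1 mapping position or more than 1 overlapping gene, so genes with near-identical copies are uncertain.

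Counts were analysed in R 4.3.3 with edgeR 4.0.16 (TMM, quasi-likelihood test with the default deviances, age group as the only factor) on the 24835 genes with a count of 1 or more in some library, with Benjamini-Hochberg adjustment over all of them and a threshold of 0.05. DESeq2 1.42.0, which the authors used in another version, was an alternative here. Python 3.11.15, pandas 2.3.3 and matplotlib 3.10.9 served for summaries and plots, and the test was tested on simulated data. Library totals of 17742389 to 22547518 reads limit the precision, and floors cover counting error only.

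Symbols came from a name table covering 29201 genes. Of the 99 members, 69 carry human-style names in capitals, printed in lower case, and 19 share a symbol with another gene, for which the gene ID is given. RefSeq (GRCz12tu) served only for which genes are neighbours. The members and the lists of partners and markers were chosen with earlier results of these data known. Genes were named if they passed the adjusted or the unadjusted threshold, were among the 2 with the most reads in a family, or were listed by role. Others, among them *hspa1b*, *dnaja*, *dnajb1a*, *dnajb1b*, *hspa2*, *hsph1*, *hspb9*, *clpx* and *cdc37*, were named after their values had been seen. Promoter motifs were not analysed here.

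The alternatives were RLE factors, library size alone, filters of 10 reads or filterByExpr, bias-adjusted deviances, a robust fit, DESeq2, the replicate number as a block, and the omission of each library in turn. DESeq2 and bias-adjusted deviances, each without old replicate 1, were added after seeing the data.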

Additional observations from a re-analysis of the deposited data

How the results depend on the processing

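The count of members past the adjusted threshold stayed at 0 in both directions under RLE factors, library size alone, filters of 10 reads or filterByExpr, bias-adjusted deviances, a robust fit and the replicate block. DESeq2 gave 1 lower, *bag5*, and leaving out 1 library gave 0 to 1 higher and 0 to 5 lower, all 5 without old replicate 1. At an unadjusted p under 0.05, the members higher in old numbered 12 with library size alone, 4 with the filter of 10 reads, 4 with the robust fit, 3 with DESeq2 and 1 to 10 with 1 library left out, and those lower numbered 1 with library size alone, 5 with DESeq2 and 2 to 25 with 1 library left out. Shares of all genes at that threshold are given above for the main fit, for DESeq2 and without old replicate 1. They were not taken for library size alone, the filters, the robust fit, the block or the other omitted libraries. The counts of those settings therefore cannot be set against a background. Why the settings differed was not tested. With 1 library left out an age group holds 2 libraries, and without any other library than old replicate 1 that library still weighs on the old group. A minimum of 10 reads gave 102 members and one of 600 reads 82.

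Family medians with 1 library left out ran from -0.84 to 0.12 for hsp90, from -0.48 to 0.34 for hsp70, from -0.51 to 0.049 for small heat shock proteins, from -0.68 to 0.21 for the mitochondrial chaperonin, from -0.23 to 0.00047 for dnaj, from -0.14 to 0.10 for cct, from -0.43 to -0.063 for bag and from -0.40 to -0.17 for hsf. With library size alone they were -0.0942 for small heat shock proteins and 0.11 for dnaj.

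The replicate numbers 1 and 5 occur in both groups, but the deviations of same-numbered libraries from their group means had a Pearson's r of -0.057 and 0.036 over 13089 genes, and the numbers were not taken as pairs. With the number as a block, 0 members passed the adjusted threshold, 1 was higher and 4 lower at an unadjusted p under 0.05, and the medians were 0.067 for small heat shock proteins and 0.21 for cct. The block reversed the log2 fold changes of *hspa9* (0.059), *stip1* (0.18), *cct8* (0.075), *unc45b* (0.042), *hsp90aa1* (0.22), *hspd1* (0.37), *hspe1* (0.29), *hspa1b* (-0.64), *hspb6* (0.067) and *hspa5* (0.070), none of them called.

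Scaling by library size alone reversed 11 uncalled values, to 0.021 for *hspa9*, 0.027 for *hsp90b1*, 0.068 for *stip1*, 0.17 for *cct8*, 0.035 for *unc45b*, 0.00924 for *hsp90aa1*, 0.055 for *hsp90ab1*, 0.047 for *dnajc3a*, 0.086 for *hspd1*, 0.15 for *hspe1* and 0.057 for *hspa5*. The filterByExpr filter gave 0.016 for *cct8*.

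Leaving out 1 library in turn reversed 24 named genes. Their log2 fold changes ran over *hsp90aa1.1* from -2.15 to 0.83, *dnajb11* from -0.22 to 0.33, *tcp1* from -0.12 to 0.18, *hsph1* from -0.60 to 2.54, *hsp70.3* from -1.93 to 5.19, *hsp70.1* from -1.69 to 4.26, *dnajb1b* from -1.26 to 1.36 and *dnaja* from -2.01 to 1.12. They ran over *hsf2* from -0.36 to 0.024, *hsp70l* from -1.27 to 4.24, *hspa1b* from -3.87 to 1.02, *hspb8* from -0.54 to 0.30, *hspa8* (ENSDARG00000068992) from -0.32 to 0.25, *hspa2* from -1.79 to 3.92, *ahsa1* (ENSDARG00000100317) from -1.16 to 0.39 and *stip1* from -1.09 to 0.23. For the rest they were *cct8* from -0.054 to 0.039, *unc45b* from -1.67 to 0.28, *hsp90aa1* from -1.22 to 0.33, *hspd1* from -0.75 to 0.23, *hspe1* from -0.60 to 0.23, *hspa5* from -0.79 to 0.15, *hspb6* from -0.50 to 0.049 and *dnajc3a* from -0.33 to 0.17.

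With both choices changed, fits without old replicate 1 stayed near these lower ends. With bias-adjusted deviances the log2 fold changes were -1.95 for *hsp70.3*, -1.70 for *hsp70.1*, -1.30 for *hsp70l* and -1.80 for *hspa2*, and the unadjusted counts 4 higher and 24 lower. With DESeq2, 9 members passed as lower, 1 was higher and 25 lower at an unadjusted p under 0.05, and the medians were -0.83 for hsp90, -0.47 for hsp70, -0.50 for small heat shock proteins, -0.22 for dnaj and -0.42 for bag. The log2 fold changes were then -2.14 for *hsp90aa1.1*, -0.21 for *dnajb11*, -0.11 for *tcp1*, -0.59 for *hsph1*, -1.92 for *hsp70.3*, -1.69 for *hsp70.1*, -1.25 for *dnajb1b*, -2.0 for *dnaja*, 0.035 for *hsf2*, -1.26 for *hsp70l*, -3.86 for *hspa1b*, -0.53 for *hspb8*, -0.31 for *hspa8* (ENSDARG00000068992), -1.78 for *hspa2* and -1.15 for *ahsa1* (ENSDARG00000100317).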
